A study of Mus musculus with 12 samples.

Results

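The interaction of KEAP1 and CCNF depletion was measured in C2C12 cells, an established line of mouse myoblasts. Cells were transfected with 30 nM siRNA for 48 h in 4 groups, siCONTROL (a control siRNA), siKEAP1 (targeting Keap1), siCCNF (targeting Ccnf) and siKEAP1/siCCNF (targeting both genes), and polyA-enriched RNA of 3 biological replicates per group was sequenced. The sources used here do not say which Ccnf siRNA was used, or how the dose was divided in the double depletion, and all values come from 1 cell line in growth medium. For each gene, the interaction is the siKEAP1 effect in CCNF-depleted cells (siKEAP1/siCCNF minus siCCNF) minus the siKEAP1 effect in control cells (siKEAP1 minus siCONTROL), on the log2 scale. It is 0 where both depletions multiply a transcript independently of each other. The members were all genes with enough counts to be tested, 15122 of 54532 genes in the deposited table, in all 12 libraries, and no gene was chosen by its values.

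KEAP1 is the substrate adaptor that brings the transcription factor NRF2 to a CUL3 ubiquitin ligase for degradation. When KEAP1 is low, NRF2 accumulates and switches on genes for glutathione synthesis, NADPH supply, quinone and aldehyde detoxification and iron handling, and persistent NRF2 activity is known to block the differentiation of myoblasts. CCNF, or cyclin F, is the substrate adaptor of an SCF ubiquitin ligase that degrades E2F transcription factors and other cell-cycle regulators in S and G2 phase. An interaction between both depletions therefore asks where the response to one ligase adaptor depends on the level of the other.

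Levels are given as CPM, the counts scaled to a common library size by TMM, and a gene was called at a Benjamini-Hochberg adjusted p under 0.05 in edgeR's quasi-likelihood test over all genes tested. Totals per library ranged from 18464209 to 37743198 counts. Of these libraries, 2 stood apart from their replicates. In siCONTROL replicate 1 and siKEAP1/siCCNF replicate 3, the deviation from the group mean correlated with gene length (r = -0.31 and -0.28 across genes), against -0.09 to 0.21 in the other libraries. Both enter the interaction with the same sign, so main counts are also given without them where they move, and list counts where they move most.

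Departure from additivity was widespread. The interaction was called for 3181 genes, 21.0% of those tested, with 1599 higher (10.6%) and 1582 lower (10.5%). With a difference over 2-fold as well, 321 genes (2.12%) were higher and 615 (4.07%) lower. The median interaction over all genes was 0.01 log2, with a standard deviation of 0.78 across genes. Without both libraries that stood apart, 2545 genes were higher and 2261 lower, and 2993 of the 3181 calls were made again in the same direction. With the trend in gene length removed from each library, 2539 were higher and 1599 lower, so the even split between directions depended on that choice.

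The form of the departure was largely the same in both directions, as a siKEAP1 effect that was smaller in CCNF-depleted cells. siKEAP1 changed 6133 genes (40.6%) in control cells, with 20.4% higher and 20.2% lower, and 785 genes (5.19%) in CCNF-depleted cells, with 3.00% higher and 2.19% lower. The second of these counts was sensitive to the libraries, ranging from 363 without siCCNF replicate 1 to 1404 without siCONTROL replicate 1, and reaching 2186 without both libraries that stood apart, against 7558 in control cells. Of the 1599 genes with a higher interaction, 1280 were lower after siKEAP1 in control cells and were not called after siKEAP1 in CCNF-depleted cells, and 150 were lower in both with a smaller change in CCNF-depleted cells. Of the 1582 genes with a lower interaction, 1311 were called higher after siKEAP1 in control cells only. Another 212 were called higher in both, with a smaller change in CCNF-depleted cells. The siKEAP1 effect was called larger in CCNF-depleted cells for 3 genes, called in CCNF-depleted cells only for 47, and called in opposite directions for 71. These classes use the same contrasts as the interaction calls, so they describe the called genes and are not separate support. A missing call in CCNF-depleted cells does not show that the effect was absent.

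**Figure D1:**
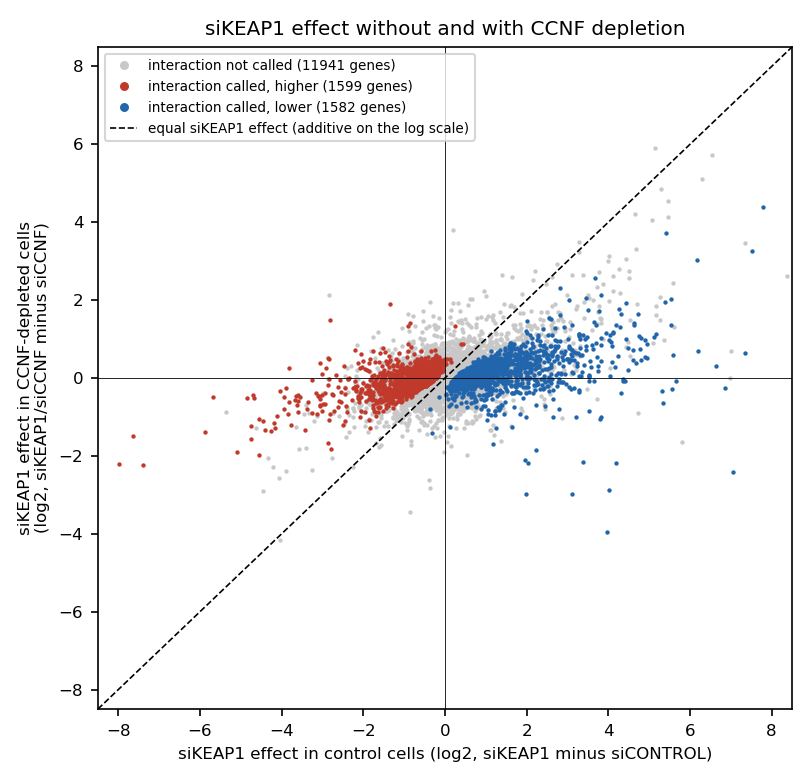
siKEAP1 effect on each tested gene in control cells (x axis, log2) against the effect in CCNF-depleted cells (y axis, log2). Grey points are genes without a called interaction, red points the 1599 higher and blue points the 1582 lower, the dashed line marks equal effects, and 4 genes lie beyond the axes; the coloured points lie near a flat band, with small effects on the y axis across a wide range on the x axis.

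Among the 6133 genes changed by siKEAP1 in control cells, the median size of the effect was 0.59 log2 in control cells and 0.16 log2 in CCNF-depleted cells, and 72.8% kept the sign. Those genes were chosen by their effect in control cells, which favours a larger value there. Among the 785 genes changed in CCNF-depleted cells, a choice that favours the other side, the median size was 0.84 log2 in control cells and 0.46 log2 in CCNF-depleted cells. Of these 785 genes, 688 were also called in control cells, 617 of them in the same direction. Across all 15122 genes the correlation of both siKEAP1 effects was 0.50 by Pearson and 0.36 by Spearman, and no library enters both.

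siCCNF changed 7247 genes (47.9%, with 22.5% higher and 25.5% lower) in control cells and 7713 (51.0%, with 24.1% higher and 26.9% lower) once KEAP1 was depleted. The double depletion mostly lay on the side of siCCNF. For 2618 of the 3181 called genes (82.3%), the mean of siKEAP1/siCCNF lay nearer to siCCNF than to siKEAP1. That share was not computed over all genes tested, so it is not shown to be particular to called genes. The mean of the double depletion was between those of both single depletions for 1080 and 1035 genes, and beyond both for the others. Of 242 protein-coding genes changed over 2-fold by both single depletions and present at 1 CPM or more in each group, 215 had a called interaction, and for 2 the 95% interval of the interaction lay within 0.5 log2 of 0. These genes were chosen by effects that share the siCONTROL libraries with the interaction, so that count is not a rate for other genes.

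The targeted transcripts themselves departed from additivity, which bears on every count above. Keap1 (chr9:21229730-21239361, GRCm38, minus strand) was at 90.0, 89.0 and 84.3 CPM in siCONTROL cells, 12.3, 12.8 and 12.7 CPM after siKEAP1, 86.5, 88.6 and 80.3 CPM after siCCNF, and 22.2, 27.0 and 23.1 CPM after both. The groups with and without siKEAP1 did not overlap, and every double library held more Keap1 mRNA than every siKEAP1 library. The interaction of Keap1 was 0.98 log2 (SE 0.11, adjusted p = 7.0e-05), with falls of 2.80 log2 in control cells and 1.82 log2 in CCNF-depleted cells.

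Ccnf (chr17:24223232-24251409, GRCm38) was at 85.5, 80.1 and 77.7 CPM in siCONTROL cells, 56.8, 64.9 and 56.4 CPM after siKEAP1, 19.7, 20.5 and 21.3 CPM after siCCNF, and 23.7, 24.1 and 25.6 CPM after both. siCCNF therefore left slightly more Ccnf mRNA in the double depletion, and siKEAP1 alone lowered Ccnf by 0.45 log2. The fall after siCCNF was 1.99 log2 in control cells and 1.28 log2 in KEAP1-depleted cells. Nfe2l2, which encodes NRF2, had an interaction of -0.04 log2 (adjusted p = 0.73), and Trip12 one of -0.38 log2 (adjusted p = 0.29).

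Because Keap1 fell less in the double depletion, the interaction was also computed with the siKEAP1 effect in control cells multiplied by 0.650, the ratio of both Keap1 falls. That left 1610 genes called, 841 higher and 769 lower, of which 1586 were among the 3181. The scaling assumes that each response is proportional to the log2 fall of Keap1 mRNA, which was not tested, and KEAP1 protein was not part of these data.

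NRF2 target genes had predominantly lower interactions. Over 5 lists of such genes, 51 were tested, and 31 were lower and 3 higher, against 10.5% and 10.6% of all genes. The 51 genes had a median siKEAP1 effect of 1.42 log2 in control cells and 0.64 log2 in CCNF-depleted cells. Their median interaction was -0.73 log2, against 0.01 log2 over all genes. siKEAP1 raised 42 of the 51 in control cells and 32 in CCNF-depleted cells, so most were higher in the double depletion than after siCCNF alone. The shares raised over all genes were 20.4% and 3.00%. The double depletion was not tested against siCONTROL here. siCCNF alone lowered 26 and raised 6, against 25.5% and 22.5% of all genes. With the siKEAP1 effect scaled by the Keap1 fall, 14 of the 51 were lower and 4 were higher. Counts of called interactions in every later list are to be read against the 10.6% higher and 10.5% lower over all genes.

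Glutathione synthesis carried the lowest list median, -1.12 log2, with 5 of 8 genes lower and none higher. Gclc, the catalytic subunit of the rate-limiting enzyme of glutathione synthesis, was at 47.3, 51.8 and 51.6 CPM in siCONTROL cells, 384, 375 and 374 CPM after siKEAP1, 38.0, 47.1 and 43.0 CPM after siCCNF, and 109, 115 and 93.6 CPM after both. All 3 double libraries lay above both groups without siKEAP1 and under the siKEAP1 libraries. The additive level was 321 CPM, and the interaction was -1.60 log2 (SE 0.13, adjusted p = 5.2e-06).

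Gclm, the modifier subunit of the same enzyme, was at 53.8, 51.4 and 54.3 CPM in siCONTROL cells, 259, 274 and 272 CPM after siKEAP1, 26.1, 29.0 and 27.2 CPM after siCCNF, and 45.4, 53.7 and 49.6 CPM after both. The double depletion thus had a level that overlapped siCONTROL, although siKEAP1 still raised Gclm by 0.86 log2 over siCCNF. Its interaction was -1.48 log2 (SE 0.10). Slc7a11, the cystine importer, had an interaction of -1.54 log2, and Gsr, glutathione reductase, one of -0.96 log2. Gss, glutathione synthetase, rose by 1.42 log2 in control cells, and its siKEAP1 effect in CCNF-depleted cells was 0.13 log2 (adjusted p = 0.51).

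Detoxifying enzymes varied more among themselves. Of 21 quinone, aldehyde and conjugating enzymes 14 were lower and none higher, with a median of -0.99 log2. Aldh3a1, an aldehyde dehydrogenase, was at 43.1, 68.5 and 66.9 CPM in siCONTROL cells, 1238, 1222 and 1107 CPM after siKEAP1, 39.4, 33.9 and 35.9 CPM after siCCNF, and 104, 117 and 119.9 CPM after both. Its siKEAP1 effect was 4.32 log2 in control cells and 1.64 log2 in CCNF-depleted cells, an interaction of -2.68 log2 (SE 0.20, adjusted p = 3.3e-06).

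Nqo1, the quinone reductase often used as a readout of NRF2, had a smaller interaction. Its mean was 56.2 ± 0.597 CPM in siCONTROL cells, 397 ± 16.2 CPM after siKEAP1, 30.8 ± 0.776 CPM after siCCNF and 152 ± 9.0 CPM after both (SD, n = 3). siKEAP1 raised it by 2.82 log2 in control cells and by 2.31 log2 in CCNF-depleted cells, an interaction of -0.51 log2 (SE 0.09, adjusted p = 0.00098). Mgst1, a microsomal glutathione transferase, had an interaction of -2.52 log2, and Gsta4, another glutathione transferase, one of -1.03 log2. Gsta3 had 0 counts in each siCONTROL library, 593, 693 and 492 counts after siKEAP1, 2, 0 and 1 counts after siCCNF, and 14, 37 and 11 counts after both, so no fold against siCONTROL is given. The Gsta and Gstm genes are close paralogs, and how shared reads were counted is not given in the sources used here.

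NADPH supply, thioredoxin and iron genes held the members that went the other way. G6pdx, the first enzyme of the pentose phosphate pathway, had an interaction of -1.04 log2, while Pgd, which acts after it in the same pathway, had one of 0.44 log2 (SE 0.10, adjusted p = 0.0088). Pgd was at 213, 185 and 179 CPM in siCONTROL cells, 275, 251 and 253 CPM after siKEAP1, 139.7, 142 and 136 CPM after siCCNF, and 245, 251 and 272 CPM after both. Its siKEAP1 effect was 0.43 log2 in control cells and 0.88 log2 in CCNF-depleted cells, so the double reached the siKEAP1 level from a lower start.

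Fth1, the heavy chain of the iron store ferritin, also had a higher interaction, 0.36 log2 (adjusted p = 0.046), and Ftl1, the light chain, a lower one of -0.76 log2. Txnip, an inhibitor of thioredoxin that siKEAP1 lowered by 1.25 log2 in control cells, had an interaction of 1.06 log2. Srxn1 and Txn1, sulfiredoxin and thioredoxin, had interactions of -0.18 and -0.26 log2 that were not called. Slc48a1, a heme transporter, was at 102, 102 and 99.98 CPM in siCONTROL cells, 580, 601 and 568 CPM after siKEAP1, 114, 123 and 121 CPM after siCCNF, and 248, 256 and 266 CPM after both. None of its groups with siKEAP1 overlapped those without it, and its interaction was -1.42 log2 (SE 0.08, adjusted p = 3.2e-07).

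Hmox1, heme oxygenase, rose after either depletion alone, to 124, 142 and 127 CPM after siKEAP1 and 70.4, 83.8 and 76.8 CPM after siCCNF from 45.1, 41.9 and 44.4 CPM. After both it was at 101, 101 and 111 CPM, between the single depletions, with an interaction of -1.14 log2. Among regulators of the pathway, Maff, Mafk and Mafg, the small MAF partners of NRF2, had interactions of -1.02, -0.75 and -0.58 log2, and Sqstm1, which encodes the KEAP1-binding protein p62, one of -0.67 log2. Transporters that export conjugates followed, with 4 of 7 lower, among them Abcc4 at -1.76 log2.

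Cyp1a1, a target of the aryl hydrocarbon receptor, had one of the lowest interactions of all genes. It was at 0.359, 1.25 and 1.59 CPM in siCONTROL cells, 48.6, 52.1 and 49.4 CPM after siKEAP1, 3.59, 2.53 and 3.33 CPM after siCCNF, and 4.17, 4.87 and 5.49 CPM after both. Its siKEAP1 effect was 5.57 log2 in control cells and 0.60 log2 in CCNF-depleted cells (adjusted p = 0.18), an interaction of -4.97 log2 (SE 0.36). Ahr, the receptor itself, was raised by either depletion alone, by 1.94 and 1.42 log2, and had an interaction of -1.68 log2. Of 8 genes in the list of this receptor and its targets 4 were lower and 1 higher, the latter being Cyp1b1, another cytochrome target of the receptor, with a siKEAP1 effect of -1.14 log2 in control cells and an interaction of 0.99 log2 (adjusted p = 0.00046).

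The antioxidant response element, through which NRF2 binds DNA, has the core letters TGACNNNGC. In promoters from RefSeq (GRCm38.p6, 250 bases before to 50 after a start), matched by symbol for 10546 of the genes tested, this core was found on either strand in 16.8% of all genes, 16.1% of genes with a higher interaction and 16.9% of genes with a lower one. It was found in 7 of the 23 NRF2 target genes with a lower interaction that had a promoter entry. Windows around 5 of these matches are shown, on the strand of the gene with the core or its reverse complement in capitals, because these genes were induced less in the double depletion.

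Gclm: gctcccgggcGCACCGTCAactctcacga
G6pdx: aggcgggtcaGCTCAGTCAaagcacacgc
Me1: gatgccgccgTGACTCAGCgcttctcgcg
Mgst1: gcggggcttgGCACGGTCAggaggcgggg
Txnrd1: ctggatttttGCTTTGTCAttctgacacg

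They lie at chr3:122245413-122245441 (plus strand), chrX:74428919-74428947 (minus), chr9:86695902-86695930 (minus), chr6:138140461-138140489 (plus) and chr10:82859104-82859132 (plus). The interactions of Me1, malic enzyme, and Txnrd1, thioredoxin reductase, were -0.42 and -0.85 log2. In Me1 the core runs into the letters of an AP-1 site, TGANTCA. Those AP-1 letters were found in 11.1% of promoters of genes with a lower interaction, in 5.23% of those with a higher one and in 6.61% of all genes. A match of letters is a description of the window and not a bound site.

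**Figure D2:**
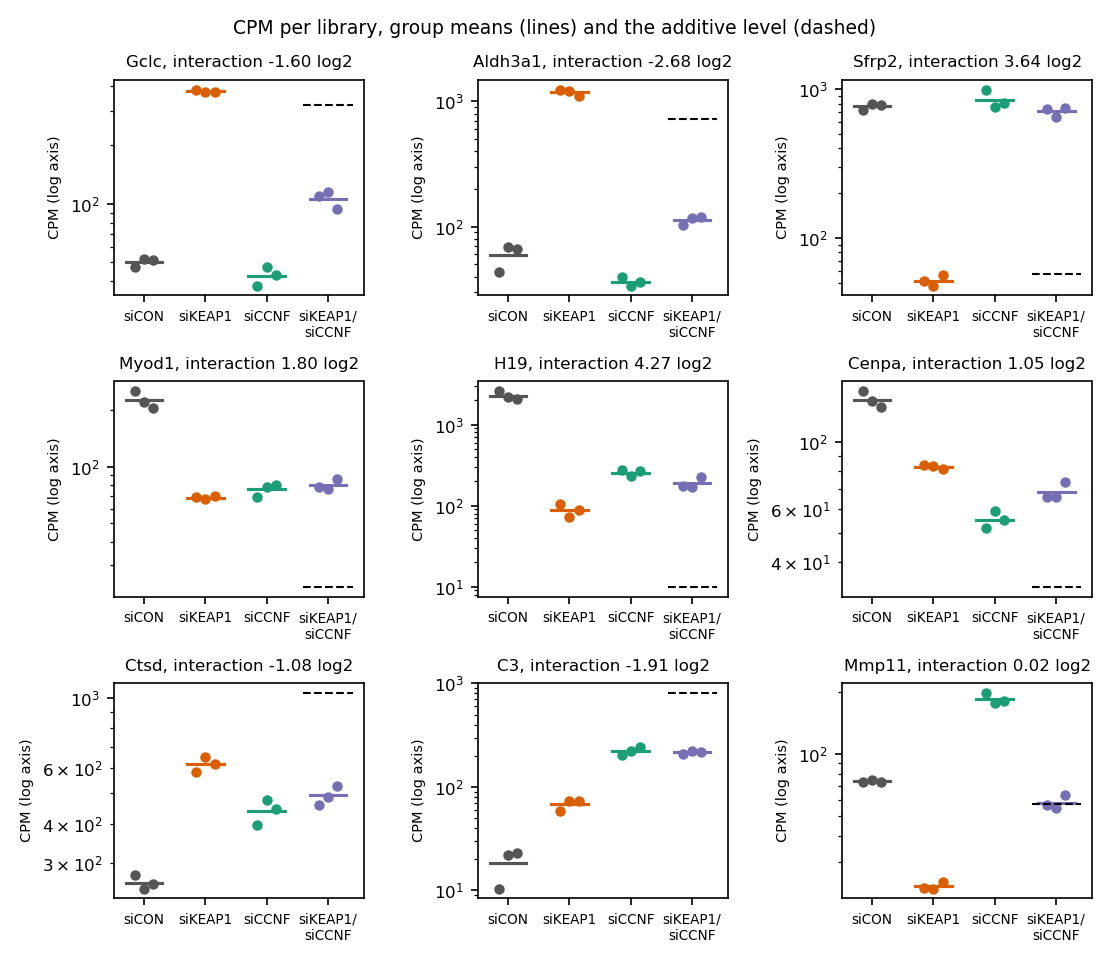
CPM of 9 genes in each library on a log axis, for siCONTROL (siCON), siKEAP1, siCCNF and siKEAP1/siCCNF, with a point per library, a line at each group mean and a dashed line at the additive level of the double depletion. Gclc, Aldh3a1, Ctsd and C3 lie under the dashed line, Sfrp2, Myod1, H19 and Cenpa above it, and Mmp11 lies on it, at 58.1 against 57.3 CPM.

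Many genes of muscle identity had higher interactions. siKEAP1 lowered them in control cells and far less so once CCNF was depleted, when most were already low. Of 11 myogenic transcription factors and fusion genes 6 were higher and 1 lower, against 10.6% and 10.5% of all genes, with a median of 0.90 log2. Of 24 sarcomere genes 11 were higher and 1 lower, with a median of 1.66 log2. On log2(FPKM + 1) that median was 0.48 log2, the lowest among the log-scale settings. siCCNF alone lowered 8 and raised 2 of the 11 (median effect -1.55 log2). It lowered 19 and raised 1 of the 24 (median effect -1.30 log2). Over all genes siCCNF lowered 25.5% and raised 22.5%. Myod1, the master regulator of the muscle lineage, was at 253, 222 and 206 CPM in siCONTROL cells, 68.7, 67.1 and 69.9 CPM after siKEAP1, 69.3, 78.3 and 80.2 CPM after siCCNF, and 78.5, 76.1 and 85.9 CPM after both. Either depletion alone lowered it, siCCNF to levels that overlapped the double and siKEAP1 to slightly lower ones. Where an additive response would have left 22.9 CPM, the interaction was 1.80 log2 (SE 0.12, adjusted p = 1.3e-06).

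Myf5, another determination factor, followed the same course, with siKEAP1 effects of -1.05 log2 in control cells and -0.09 log2 in CCNF-depleted cells. Myog, which drives terminal differentiation, was at 74.6, 32.0 and 29.3 CPM in siCONTROL cells, 0.232, 0.162 and 0.132 CPM after siKEAP1, 10.2, 6.84 and 7.35 CPM after siCCNF, and 1.51, 1.76 and 2.02 CPM after both. Its 4 groups did not overlap, and siKEAP1 still lowered it by 2.21 log2 in CCNF-depleted cells, against 7.99 log2 in control cells. Myog was highest in siCONTROL replicate 1, one of the libraries that stood apart.

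Structural genes of the sarcomere were low throughout in these undifferentiated cells. Tnnt1, slow troponin T, was at 40.3, 20.2 and 22.8 CPM in siCONTROL cells, 2.42, 1.42 and 2.15 CPM after siKEAP1, 14.5, 9.25 and 12 CPM after siCCNF, and 7.14, 6.99 and 9.18 CPM after both. The interaction was 3.18 log2 (SE 0.39, adjusted p = 0.00012). Acta1, Myh3 and Atp2a1, which encode skeletal actin, embryonic myosin and the calcium pump of the sarcoplasmic reticulum, had interactions of 2.66, 3.19 and 2.93 log2. Myh3 had a mean of only 0.58 CPM in the double depletion. The other 12 sarcomere genes did not pass the test, among them Neb, the giant thin filament protein, with siKEAP1 effects of -2.26 log2 in control cells and -2.29 log2 in CCNF-depleted cells (interaction -0.03 log2, SE 0.40, adjusted p = 0.97). The lower one was Tnnt2, which siKEAP1 raised in control cells and which had an interaction of -0.98 log2. With the scaled siKEAP1 effect, 5 sarcomere genes and 4 myogenic factors were higher.

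Subunits of the muscle acetylcholine receptor belonged to the same pattern, with 4 of 9 receptor and synapse genes higher. siCCNF alone lowered 6 of the 9 and raised 1. Chrna1, the alpha subunit, was at 333, 243 and 234 CPM in siCONTROL cells, 122, 108 and 119.9 CPM after siKEAP1, 44.8, 38.6 and 45.0 CPM after siCCNF, and 41.9, 39.1 and 45.6 CPM after both. siKEAP1 had an effect of -0.02 log2 once CCNF was depleted. Notch target genes Hes1 and Heyl had interactions of 0.89 and 2.19 log2, while the Notch ligand Jag1 had one of -1.02 log2.

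The highest interactions belonged to genes of varied kinds. Sfrp2, a secreted modulator of Wnt signalling, was at 721, 797 and 785 CPM in siCONTROL cells, 51.1, 48.0 and 56.2 CPM after siKEAP1, 992, 756 and 807 CPM after siCCNF, and 742, 647 and 753 CPM after both. The siKEAP1 libraries lay far under all others, siCONTROL overlapped both remaining groups, and every double library lay under every siCCNF library. Its interaction of 3.64 log2 (SE 0.15, adjusted p = 5.4e-08) was the highest among protein-coding genes at 1 CPM or more in each group, where the additive level was 57.4 CPM.

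H19, the imprinted noncoding RNA next to Igf2, was at 2579, 2191 and 2063 CPM in siCONTROL cells, 104, 72.1 and 88.3 CPM after siKEAP1, 272, 230.2 and 265 CPM after siCCNF, and 176, 168 and 227 CPM after both. In contrast to Sfrp2, either depletion alone lowered H19, and the double lay between them, with an interaction of 4.27 log2 (SE 0.21). Igfbp5, which binds insulin-like growth factors, and Igf1 had interactions of 2.40 and 2.93 log2, in a list of 11 genes of this axis with 4 higher and 2 lower. Car3, a carbonic anhydrase of muscle and fat, fell to 34.0, 25.2 and 29.3 CPM after siKEAP1 and to 34.5, 18.1 and 28.7 CPM after siCCNF, from 497, 432 and 419 CPM. After both it was at 21.3, 15 and 21.8 CPM, overlapping siCCNF, with an interaction of 3.44 log2. C1qtnf3, Omd, Pitx3, Fgfr4, Fndc1 and Cd200 completed the 10 highest, at 3.08 to 3.50 log2.

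For many cell-cycle genes the siKEAP1 effect changed direction. Of 126 such genes tested over 6 lists, 81 had a higher interaction and 1 a lower one, against 10.6% and 10.5% of all genes. Ccnf, the siRNA target itself, is among the 126. Of 39 mitotic kinases, kinesins and condensin subunits 34 were higher, with a median interaction of 0.74 log2, and of 33 replication genes 24 were higher, with a median of 0.56 log2. siKEAP1 lowered 34 of the 39 mitotic genes in control cells, and in CCNF-depleted cells it raised 19 of the 39 and lowered none. siCCNF alone lowered all 39 mitotic genes and 32 of the 33 replication genes. Over all genes siKEAP1 lowered 20.2% in control cells and raised 3.00% in CCNF-depleted cells, and siCCNF alone lowered 25.5%.

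Cenpa, the centromeric histone, was at 148, 137 and 131 CPM in siCONTROL cells, 83.7, 83.1 and 81.3 CPM after siKEAP1, 51.8, 58.9 and 55.0 CPM after siCCNF, and 66.0, 65.7 and 73.6 CPM after both. Every double library lay above every siCCNF library and under every siKEAP1 library. siKEAP1 changed Cenpa by -0.75 log2 in control cells and by 0.31 log2 in CCNF-depleted cells (adjusted p = 0.026), an interaction of 1.05 log2 (SE 0.10, adjusted p = 1.9e-05).

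Ccna2, the S phase and G2 cyclin, was at 279.7, 290.5 and 281 CPM in siCONTROL cells, 182, 182 and 179 CPM after siKEAP1, 122, 136 and 133 CPM after siCCNF, and 153, 159.7 and 146 CPM after both. The effect of siKEAP1 again changed sign, from -0.65 to 0.23 log2 (adjusted p = 0.041). Plk1, the polo-like mitotic kinase, had a mean of 117 ± 1.93 CPM in siCONTROL cells, 86.2 ± 3.47 CPM after siKEAP1, 66.1 ± 5.23 CPM after siCCNF and 86.2 ± 6.52 CPM after both (SD, n = 3). Mcm5, a subunit of the replicative helicase, changed by -0.31 log2 after siKEAP1 in control cells and by 0.43 log2 in CCNF-depleted cells.

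In all, 60 genes (0.397% of those tested) were lowered by siKEAP1 in control cells and raised in CCNF-depleted cells, and 28 of them were in the cell-cycle lists. The others included Uhrf1, Melk, Pbk, Cep55, Ube2c, Kif15 and Racgap1, which also act in replication or mitosis, and F3, the initiator of coagulation, which does not. The number of such genes depended on the libraries: it was 199 without both libraries that stood apart and between 9 and 95 when 1 library was left out, lowest without siCCNF replicate 1 (9), siCCNF replicate 3 (13) and siKEAP1/siCCNF replicate 2 (18). As lists, 39 mitotic and 28 replication genes had a higher interaction without both libraries, and 34 and 21 with the scaled siKEAP1 effect. With the siCCNF effect in control cells scaled instead by the ratio of both Ccnf falls (0.644), 29 mitotic and 13 replication genes were higher. The replication median was then 0.24 log2. This scaling assumes responses proportional to the log2 fall of Ccnf mRNA, which was not tested. Because siKEAP1 alone also lowered Ccnf, the ratio does not measure the strength of siCCNF alone.

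Of 13 E2F family and pocket protein genes 6 were higher and 7 were not called, and 3 were higher with the siCCNF effect scaled by the Ccnf fall. E2f1, E2f2, E2f3, E2f7 and E2f8 had interactions of 0.53, 0.38, 0.76, 0.71 and 0.74 log2. E2f4 and E2f5 had values of 0.05 and -0.09 log2 that were not called. Of 13 genes in the list of cyclin F and its substrates 11 were higher, and 6 with that scaling. This list holds Ccnf itself, the siRNA target, whose own interaction that scaling removes by construction. It also shares genes with the other cell-cycle lists, so its counts are not separate from theirs. Mybl2, a transcription factor of S phase, was at 40.9, 42.2 and 40.8 CPM in siCONTROL cells, 19.3, 19.4 and 19.1 CPM after siKEAP1, 21.9, 25.6 and 24.7 CPM after siCCNF, and 24.5, 24.7 and 25.5 CPM after both. The siKEAP1 libraries were the lowest, and the effect of siKEAP1 was -1.10 log2 in control cells and 0.05 log2 in CCNF-depleted cells (adjusted p = 0.79).

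Ccne1, cyclin E1, was at 45.8, 41.3 and 40.3 CPM in siCONTROL cells, 17.0, 17.5 and 16.5 CPM after siKEAP1, 46.0, 52.9 and 55.1 CPM after siCCNF, and 45.6, 45.5 and 53.5 CPM after both. In contrast to Mybl2, its level in each siCCNF library was above that in each siCONTROL library. Ccnd1, cyclin D1, was the 1 cell-cycle gene with a lower interaction (-0.68 log2), being raised by siKEAP1 in control cells by 1.02 log2.

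**Figure D3:**
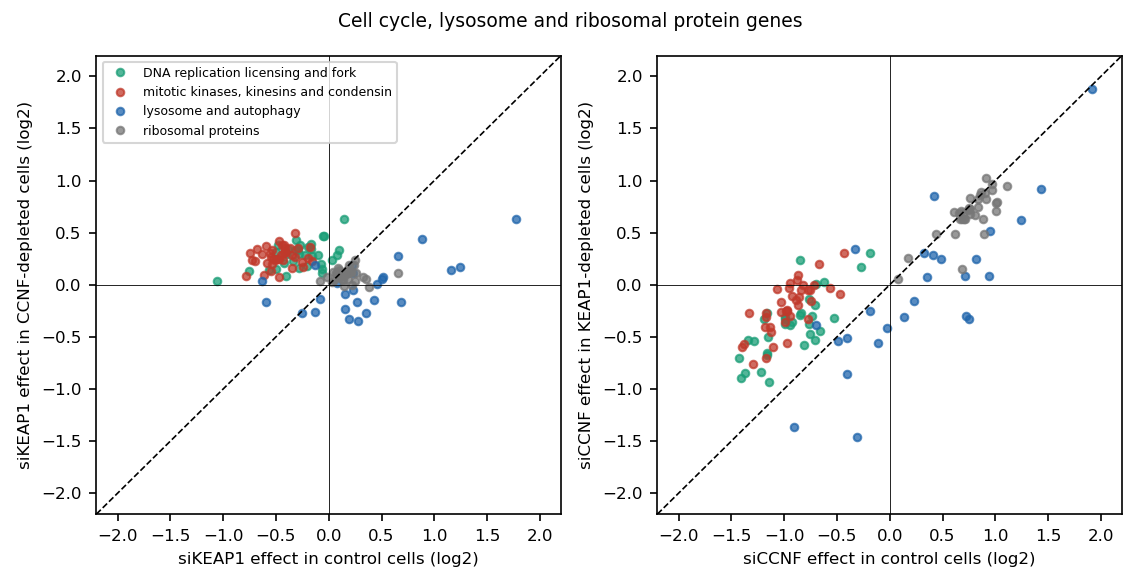
Left, siKEAP1 effect in control cells against that in CCNF-depleted cells, and right, siCCNF effect in control cells against that in KEAP1-depleted cells (all axes log2), for the genes of 4 lists with the line of equal effects dashed. Replication and mitotic genes cluster left of and above the origin in the left panel, most lysosome genes lie under the line, and the 34 ribosomal protein genes lie along the line in the right panel; Gpnmb, a lysosome gene, lies beyond the axes.

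The letters TTTGGCGC or TTTCCCGC, 2 common forms of an E2F site, were found on either strand in 3.38% of promoters of all genes tested, 4.90% of those with a higher interaction and 1.94% of those with a lower one. They were found in 10 of 49 promoters of the replication and mitosis genes with a higher interaction. Windows of 4 helicase subunit genes and a condensin gene are shown, with the site in capitals, as members of the group whose siKEAP1 effect changed sign.

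Mcm3: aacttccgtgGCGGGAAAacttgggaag
Mcm5: aagaactttcGCGCCAAAacgtccagcc
Mcm6: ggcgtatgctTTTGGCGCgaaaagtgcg
Mcm7: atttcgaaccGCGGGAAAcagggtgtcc
Ncapd2: catctcgttgTTTGGCGCgtatcctgcc

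Their positions are chr1:20820276-20820303 (minus strand), chr8:75109350-75109377 (plus), chr1:128359798-128359825 (minus), chr5:138172031-138172058 (minus) and chr6:125191577-125191604 (minus). Each of these 5 genes was lowered by siKEAP1 in control cells and raised by it in CCNF-depleted cells.

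The list of CDK inhibitors and p53 targets was split, with more genes lower than higher. Of 20 tested 8 were lower and 3 higher, with a median of -0.34 log2, and 14 were lower without both libraries that stood apart. Cdkn1a, which encodes the CDK inhibitor p21, had a mean of 216 ± 23.3 CPM in siCONTROL cells, 405 ± 7.18 CPM after siKEAP1, 188 ± 10.8 CPM after siCCNF and 213 ± 13.6 CPM after both (SD, n = 3). Its interaction was -0.73 log2 (SE 0.11), and those of Mdm2, the ubiquitin ligase of p53, and Trp53inp1 were -0.96 and -1.47 log2. Cdkn1c, Cdkn2c and Cdkn2d, which encode p57, p18 and p19, were the 3 that were higher, so CDK inhibitors did not share 1 sign.

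Many lysosomal genes had lower interactions, with 16 of 27 lower and 3 higher, against 10.5% and 10.6% of all genes. The median interaction of this list was -0.43 log2. Ctsd, the protease cathepsin D, was at 274, 249 and 257 CPM in siCONTROL cells, 582, 649.7 and 619 CPM after siKEAP1, 394, 474 and 443 CPM after siCCNF, and 459, 486 and 528 CPM after both. Either depletion alone raised it, and the double depletion overlapped siCCNF and stayed under siKEAP1. The interaction was -1.08 log2 (SE 0.11, adjusted p = 3.6e-05), and that of Ctsb, cathepsin B, was -1.02 log2.

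For Hexa, a subunit of a lysosomal hexosaminidase, and Grn, the precursor of lysosomal granulins, the siKEAP1 effect changed sign in the direction opposite to that of the cell cycle. Hexa had a mean of 134 ± 7.87 CPM in siCONTROL cells, 162 ± 5.46 CPM after siKEAP1, 316 ± 15.7 CPM after siCCNF and 249 ± 18.7 CPM after both (SD, n = 3). siKEAP1 raised it by 0.27 log2 in control cells and changed it by -0.34 log2 in CCNF-depleted cells (adjusted p = 0.013). Both were among 11 such genes (0.0727%), which also included Adcy8 (mean under 1 CPM in each group), Mgll, Nov, Vash1, Gnpda1 and Qpct. Their number was 48 without both libraries that stood apart and between 1 and 18 when 1 library was left out, lowest without siKEAP1/siCCNF replicate 2.

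Among 20 acute phase and NF-kB genes, siKEAP1 raised 13 in control cells and 3 in CCNF-depleted cells, and siCCNF alone raised 14. The same shares over all genes were 20.4%, 3.00% and 22.5%. Of the 20, 9 were lower and 1 higher, with a median of -0.55 log2. C3, the central complement component, was at 10.4, 21.9 and 23.1 CPM in siCONTROL cells, 58.3, 72.5 and 72.5 CPM after siKEAP1, 203, 220.4 and 241 CPM after siCCNF, and 209.8, 223 and 216 CPM after both. siCCNF and the double overlapped, and the siKEAP1 effect was 1.88 log2 in control cells and -0.03 log2 in CCNF-depleted cells.

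Whether such a gene departs from additivity depended on the scale. On a linear scale, where effects add in CPM, 3 genes of this list were lower, and Saa3, an acute phase protein that siCCNF raised by 6.38 log2, had an interaction of -1.94 log2 on the log scale. Lcn2, lipocalin 2, had an interaction of -2.57 log2 on the log scale and a positive value on the linear one, 0.14 of its mean. Over all genes, 2665 of the 3181 calls were made again in the same direction on the linear scale and 4 in the opposite one.

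Interferon response genes had values under 0 for all 27 tested, with a median of -1.09 log2, but only 3 passed the test (Zbp1, Mx1 and Ifi35). Zbp1, a sensor of nucleic acids, was at 0.717, 2.93 and 3.52 CPM in siCONTROL cells, 4.55, 12.4 and 9.34 CPM after siKEAP1, 10.5, 24.0 and 13.5 CPM after siCCNF, and 9.80, 16.5 and 14.1 CPM after both. siCONTROL replicate 1 was the lowest of all libraries, and the spread within groups was wide. The genes of the mitochondrial genome were under 0 for all 13 tested with 8 lower, and the share of counts from the mitochondrial chromosome was 2.16% to 2.24% in siCONTROL libraries, 2.73% to 3.70% after siKEAP1, 3.29% to 3.83% after siCCNF and 3.29% to 3.46% after both. How polyA enrichment bears on these transcripts was not tested.

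Extracellular matrix genes were split. Of 26 collagens and matrix genes 12 were higher and 3 lower, with a median of 0.41 log2 on the log scale and -0.10 on the linear scale. Col1a2, a chain of collagen I, was at 2504, 2768 and 2829 CPM in siCONTROL cells, 828, 768 and 795 CPM after siKEAP1, 4754, 4496 and 4522 CPM after siCCNF, and 2812, 2589 and 2744 CPM after both. The depletions acted in opposite directions, siKEAP1 lowered Col1a2 in both settings, by 1.76 and 0.76 log2, and the double overlapped siCONTROL. Thbs1, thrombospondin, had an interaction of 1.65 log2, Adamts5, a matrix protease, one of 2.29 log2, and Col5a3 one of -0.99 log2.

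Genes with interactions near 0 were also found. Mmp11, a matrix metalloprotease, was at 73.4, 75.1 and 73.4 CPM in siCONTROL cells, 22.5, 22.4 and 24.1 CPM after siKEAP1, 198, 176 and 180.3 CPM after siCCNF, and 56.5, 54.9 and 63.0 CPM after both. siKEAP1 lowered it by 1.69 log2 in control cells and 1.67 log2 in CCNF-depleted cells, and the 95% interval of the interaction was -0.19 to 0.23 log2. Rps6ka1, a kinase of the MAP kinase pathway, changed over 2-fold in opposite directions after the single depletions and had an interaction of -0.04 log2, with an interval of -0.40 to 0.32 log2. Of the 6 genes with the smallest interaction among those changed over 2-fold by each single depletion, which were chosen by that value, 5 were called with the siCCNF effect scaled by the Ccnf fall, 3 without both libraries that stood apart and 3 on the linear scale. Lists with few calls also moved. The 34 ribosomal protein genes had no call in either direction and a median interaction of -0.03 log2, while siCCNF raised 32 of them in control cells and 32 under KEAP1 depletion, with median effects of 0.76 and 0.71 log2. Without both libraries that stood apart, 26 of the 34 were lower, with a median of -0.34 log2. Proteasome subunits had 2 higher and 1 lower of 31, and 3 and 12 without both libraries, and nuclear genes of oxidative phosphorylation had 3 higher and none lower of 32, and 14 higher with the length trend removed.

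**Figure D4:**
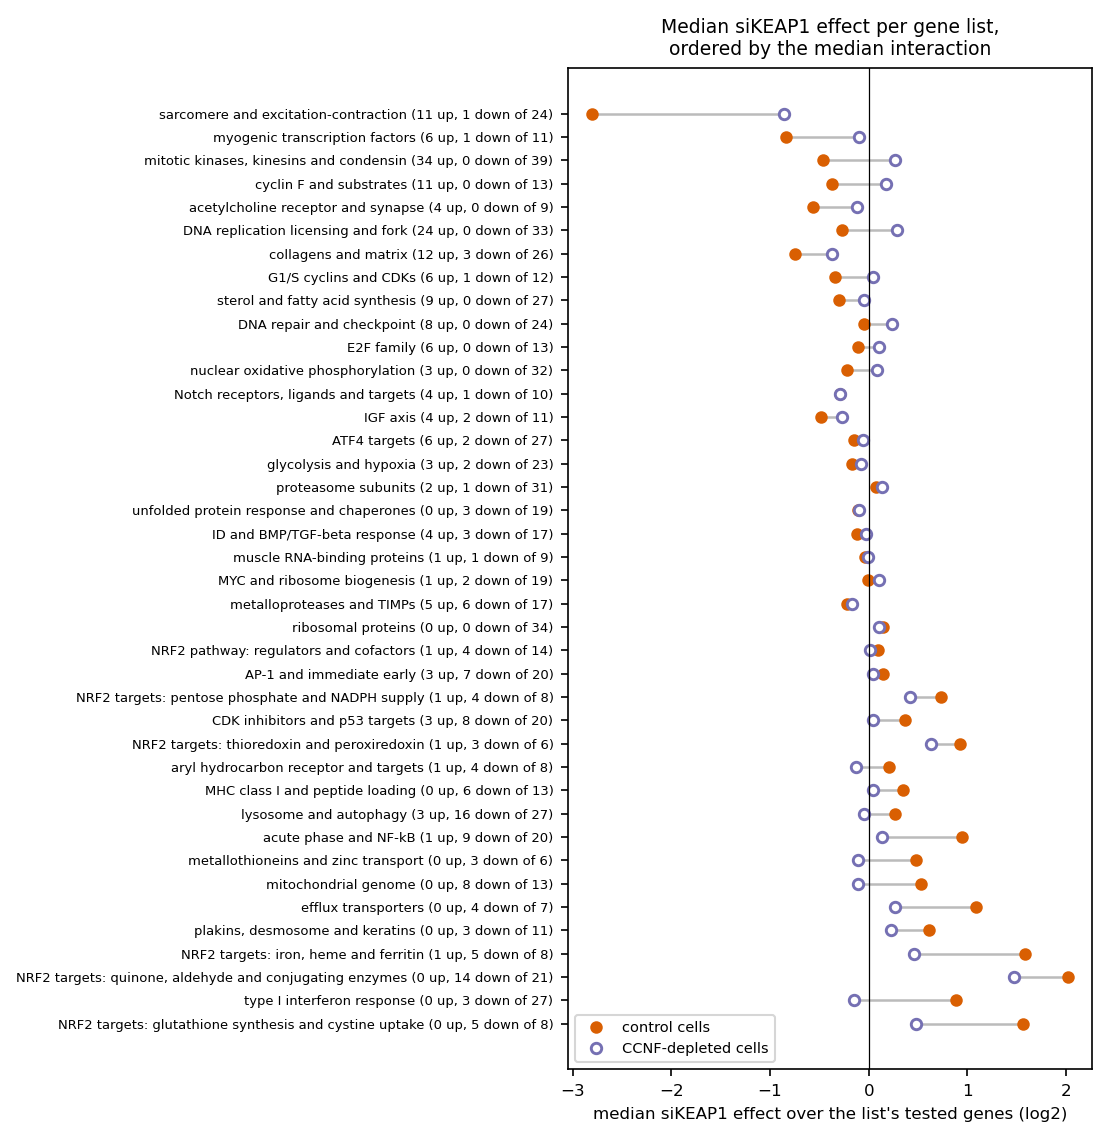
Median siKEAP1 effect (log2) of each of 40 gene lists in control cells (filled) and CCNF-depleted cells (open), ordered by the median interaction, with the number of genes called higher (up) and lower (down) of those tested. The sarcomere list has the largest distance between points among lists that siKEAP1 lowers (-2.80 to -0.86 log2), mitotic and replication genes cross 0, and the ribosomal protein points nearly coincide (0.14 and 0.10 log2).

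The remaining lists lay between these, and their counts are to be read against the 10.6% higher and 10.5% lower over all genes. Plakin and keratin genes had 3 lower of 11, among them Ppl, periplakin, at -3.51 log2, and MHC class I genes 6 lower of 13. Immediate early genes had 7 lower and 3 higher of 20, with Dusp4, a MAP kinase phosphatase, at -1.48 log2 and Egr1 at 0.94 log2. Sterol and fatty acid synthesis genes had 9 higher of 27 and ATF4 targets 6 higher and 2 lower of 27. The unfolded protein response list had 3 lower of 19, MYC and ribosome biogenesis 1 higher and 2 lower of 19, glycolysis and hypoxia 3 higher and 2 lower of 23, and DNA repair 8 higher of 24, or 15 without both libraries that stood apart. The shares in the glycolysis and MYC lists were near those over all genes. Metallothionein and zinc genes had 3 lower of 6, metalloproteases and their inhibitors 5 higher and 6 lower of 17, BMP and TGF-beta response genes 4 higher and 3 lower of 17, and muscle RNA-binding proteins 1 higher and 1 lower of 9, or 5 and 2 without both libraries.

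The lowest fitted interactions included genes that are not reliable. Gapdh had an interaction of -6.08 log2 (adjusted p = 0.0055), but it was at 14.0, 10.6 and 19.1 CPM in siCONTROL cells, 168, 11.1 and 203 CPM after siKEAP1, 9.15, 105 and 156 CPM after siCCNF, and 12.5, 9.33 and 12.8 CPM after both. The jumps within groups were as large as those between them, and Gapdh has many near-identical pseudogenes. mt-Nd4l, at -4.96 log2, rested on 74.1 CPM in siCCNF replicate 1 against 5.17 and 5.72 CPM in the other replicates. Calr3, a testis-type calreticulin, was tight by comparison, at 1.30, 1.36 and 1.54 CPM in siCONTROL cells, 35.3, 38.4 and 34.6 CPM after siKEAP1, 2.05, 2.22 and 1.96 CPM after siCCNF, and 2.26, 2.93 and 2.86 CPM after both, with an interaction of -4.31 log2 (SE 0.19). Prl2c2 and Prl2c3, at -3.43 and -3.47 log2, are close paralogs whose reads may be shared.

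Called genes were not spread evenly over expression levels. When genes were divided into 5 bins by mean CPM, 2.12% were higher and 6.02% lower in the bin of lowest expression, against 16.9% and 10.9% in that of highest expression. In 5 bins of gene length, the median interaction was 0.08 log2 among the shortest genes and -0.10 log2 among the longest. Of 12886 protein-coding genes 1539 were higher and 1528 lower.

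The myoblast identity of the libraries was checked with 8 marker genes, all of them present, and 7 had a higher interaction. Their summed level was 5121 to 5532 CPM in siCONTROL cells, 4080 to 4264 CPM after siKEAP1, 3156 to 3266 CPM after siCCNF and 3036 to 3249 CPM after both. Because these are bulk libraries, fewer cells of a type and less RNA per cell cannot be told apart. Some markers of other cell types had lower interactions. The 7 macrophage markers summed to 13.2 to 17.1 CPM in siCONTROL cells and 29.2 to 34.9 CPM after siKEAP1. They summed to 18.0 to 22.6 CPM after siCCNF and 20.2 to 25.7 CPM after both. Of 4 tested 2 were lower, Cd68 (-2.60 log2) and Cd14 (-0.73 log2), and Itgam was at 0 in every group. Cd14 held most of the sum, with a mean of 22.4 CPM after siKEAP1. Lyz2 and Csf1r had interactions of 0.44 and 0.35 log2 that were not called.

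Adipocyte markers summed to 90.7 to 94.2 CPM after siKEAP1 and to 21.3 to 56.8 CPM elsewhere, with 2 of 3 tested lower and Cidec at 0. Most of that sum was Lpl, whose interaction of 0.20 log2 was not called. Osteoblast markers summed to 3405 to 3736 CPM after siKEAP1 and 1889 to 2475 CPM elsewhere, nearly all of it Spp1, with 1 of 4 lower and Ibsp at 0. Epithelial markers summed to 41.5 to 46.5 CPM after siKEAP1 and 10.6 to 25.0 CPM elsewhere, nearly all of it Krt14, with 1 of 2 lower and Esrp1 at 0, and endothelial markers did not pass 3.02 CPM in any library, with none of 3 called. Their part in the lower interactions was not tested.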

How the data were processed

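RNA of C2C12 cells was sequenced and analysed by a service provider. The authors deposited 1 table of 54532 genes with a raw count of reads per gene and an FPKM value for each library, and gene lengths as another column. It also holds the authors' own comparisons, as scaled group means (a score), log2 fold changes and p-values, which the authors deposited beside the counts and which were not used here. The submitters' processing notes name HISAT2 and GRCm39, while the coordinates in the table are those of GRCm38. The counting tool, the annotation and the use of strand are not given in the sources used here.

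The test was edgeR's quasi-likelihood test (edgeR 4.0.16, R 4.3.3) on the deposited counts of all 12 libraries, with 1 mean for each of the 4 groups, TMM scaling and the 15122 genes that filterByExpr kept, and p-values were adjusted over all genes tested (Benjamini-Hochberg). The standard error is the log2 value divided by the root of its F statistic. Replicate numbers did not pair the libraries: the correlation of deviations lay between -0.27 and 0.20 in 18 same-numbered pairs and passed 0.1 in 4. Any 2 replicates differed by more than sampling noise.

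Genes were named by rule: the 10 highest and 10 lowest called interactions among protein-coding genes at 1 CPM or more in each group, 3 in each direction with a group under 1 CPM, up to 4 called genes per list, 6 additive genes, and Keap1, Ccnf, Nfe2l2 and Trip12. Other genes named from the lists were chosen after their values were seen. The 40 lists and the markers were written by hand, and they and the comparison were chosen with earlier results of these data known.

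On simulated counts of 14895 genes, the interaction test recovered 12 of 67 genes changed by 0.5 log2, 51 of 67 by 1 log2 and 62 of 66 by 2 log2, and called 10 unchanged genes. Changes were placed only in genes above a minimum mean count. The simulated libraries had no deviation by gene length within a group. These rates therefore need not hold for the real libraries. Alternatives used DESeq2 1.42.0, limma 3.58.1 on log2(FPKM + 1) and log2(FPKM + 0.1), other scalings, filters, the replicate block, removal of the length trend, a linear scale and each library left out. The class counts under these settings were added after seeing the data. Intervals and totals cover counting error and the spread of 3 biological replicates of 1 cell line. Some results are not reported here.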

Additional observations from a re-analysis of the deposited data

Results flagged for a closer look

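The siKEAP1 effect differed between control and CCNF-depleted cells by the interaction test for 1599 genes that were higher and 1582 that were lower. Among them, 60 genes were lowered by siKEAP1 in control cells and raised in CCNF-depleted cells, and 11 were raised in control cells and lowered in CCNF-depleted cells. The remaining Keap1 mRNA also differed (24.1 CPM in the double depletion against 12.6 CPM after siKEAP1), and its part in these differences was not tested.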

How the results depend on the processing

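The interaction was called for 3181 genes, and for 1610 with the siKEAP1 effect scaled by the Keap1 fall (841 higher, 769 lower), 4806 without both libraries that stood apart, 936 with a difference over 2-fold and 1783 at an adjusted p under 0.01. Higher calls (1599) became 2539 with the length trend removed (61.4% of calls, against 50.3%), 2460 with the replicate block and the length trend removed, and 2545 without both libraries. Calls over 2-fold were 386 on log2(FPKM + 1) and 304 with the scaled siKEAP1 effect. The siKEAP1 effect in CCNF-depleted cells (785 genes) gave 1270 calls by DESeq2, 1194 without the length trend and 2186 without both libraries.

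Of the classes, damped effects (362 genes) became 882 without both libraries. Opposite directions with a higher interaction (60) became 104 by DESeq2, 38 with the replicate block, 99 without the length trend and 199 without both libraries, and those with a lower one (11) became 17 with no filter and 48 without both libraries. The replicate block gave 2964 calls in all, 2878 of them among the 3181, and 6 of 12 libraries correlated best with their own number.

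With 1 library left out, calls ranged from 2429 to 3397 (higher 1218 to 1734, lower 1211 to 1663, over 2-fold 801 to 975). siKEAP1 effects ranged from 5113 to 6686 in control cells and from 363 (without siCCNF replicate 1) to 1404 (without siCONTROL replicate 1) in CCNF-depleted cells, and siCCNF effects from 6269 to 7672 and from 6665 to 8629. Effects in control cells only ranged from 1983 to 2576, damped ones from 193 (without siCCNF replicate 1) to 577 (without siCONTROL replicate 1), and opposite directions from 9 to 95 and from 1 to 18.

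Values that changed sign were those of Nfe2l2 (0.012), Lcn2 (0.14) and Postn (-0.26) on the linear scale, Gsta2 (0.21) with the scaled siKEAP1 effect, and Saa3 (0.33) and Eno1 (-0.21) with the siCCNF effect scaled by the Ccnf fall. The cause was not tested for any of these. Precision is limited by 3 libraries per group, and genes changed by 0.5 log2 were mostly missed in the simulated data.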
